A study of Mus musculus with 30 samples.

Results

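*Sox9*, *Sox4*, *Onecut1*, *Onecut2*, *Klf5*, *Ehf*, *Elf3* and *Grhl2* are 8 transcription factor genes of bile duct cells and of liver progenitor cells. They were found in the count table by gene symbol, as 8 of its 55450 genes, and each is listed once and annotated as protein-coding. The data are stranded poly(A) libraries from the livers of 30 male mice, 1 library a mouse, and each of 3 experiments set 5 mice without CCAAT/enhancer-binding protein α (*Cebpa*) in hepatocytes against 5 controls, *Cebpa* fl/fl. In HFCFD2W the knockout mice were *Cebpa* ΔHep, in which the albumin promoter drives Cre in hepatocytes from early life on, and both genotypes ate HFCFD, a diet rich in fat, cholesterol and fructose, over 2 weeks. The knockout mice of the other experiments, HFCFD8W+T10D and HFCFD12W+T10W, were *Cebpa* ΔHep,ERT2, in which the albumin promoter drives a Cre that acts after tamoxifen, and both genotypes carry the same tamoxifen label. The HFCFD8W+T10D mice were fed HFCFD for 8 weeks with tamoxifen for the last 10 days, and the HFCFD12W+T10W mice for 22 weeks in all with tamoxifen for the last 10 weeks. The floxed alleles were present in all 30 mice, which were backcrossed to C57BL/6N, and ages are not given in the sources used here. Batch, time on the diet, Cre line and tamoxifen change together from experiment to experiment and cannot be told apart, so tests were made within an experiment or on the difference between 2 genotype effects.

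Library totals ran from 7996128 to 10257366 counts, and no 2 libraries of a group agreed within sampling noise. *Cebpa* itself was lower in every knockout mouse than in every *Cebpa* fl/fl mouse of its experiment, with means of 177 ± 17.7 and 4.74 ± 0.903 CPM (mean ± SD, n = 5 each) in HFCFD2W, 144 ± 13.4 and 17.2 ± 5.93 CPM in HFCFD8W+T10D, and 114 ± 23.04 and 21.3 ± 1.97 CPM for HFCFD12W+T10W. The unit CPM is a count scaled to a fixed library total, after the totals were adjusted by TMM (trimmed mean of M values), so that libraries can be compared. The tissue label was met in all libraries: the summed level of 10 hepatocyte markers, albumin among them, lay between 74152 and 191615 CPM. The RNA is of whole liver, in which fewer cells of a type and less RNA per cell cannot be told apart.

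Hepatocytes and cholangiocytes, the cells that line bile ducts, arise from a shared embryonic progenitor, the hepatoblast. SOX9 marks cholangiocytes and the hepatocytes nearest to them, and SOX9 and SOX4 together shape developing ducts, while the ONECUT factors (ONECUT1 is also called HNF6) act in hepatocytes and in ducts and set where ducts form. EHF and ELF3 are ETS family factors, KLF5 is a Krüppel-like zinc finger factor and GRHL2 is a grainyhead-like factor, and all 4 are known from epithelia that line surfaces and tubes, where they keep up genes of cell junctions.

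In the livers of HFCFD12W+T10W, knockout mice had higher mRNA of *Sox9*, *Sox4*, *Ehf*, *Elf3* and *Grhl2* and lower mRNA of *Onecut2*. After 10 days of tamoxifen, in HFCFD8W+T10D, *Ehf*, *Elf3* and *Sox9* were higher, and *Onecut1* and *Onecut2* were lower. In HFCFD2W, where *Cebpa* was lowest, no member passed the test. A member passed at an adjusted p under 0.05 in edgeR's quasi-likelihood test within the experiment, with Benjamini-Hochberg adjustment over all genes tested, and rose, fell, higher and lower are used of such members.

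The counts of members stand beside those of all genes as follows. In HFCFD2W, 4 of the 8 members had enough counts to be tested (*Sox9*, *Sox4*, *Onecut1* and *Onecut2*), and 0 passed by edgeR, 0 of them at an unadjusted p under 0.05, 0 by DESeq2 and 0 by limma, where 8.60% of 11068 genes were higher and 8.09% lower. The genotypes overlapped for each of these 4 members, and 12.5% of genes tested had no overlap between the 5 knockout and the 5 *Cebpa* fl/fl mice. In HFCFD8W+T10D, 6 members were tested, 3 were higher and 2 lower, beside 10.3% and 6.85% of 11990 genes. The mice did not overlap for 3 of these 6 (*Onecut2*, *Ehf* and *Elf3*), against 11.5% of genes. In HFCFD12W+T10W, 7 members were tested, 5 were higher and 1 lower, beside 27.4% and 23.8% of 12463 genes, and 6 did not overlap, against 39.1% of genes. *Ehf* and *Elf3* in HFCFD8W+T10D, and *Ehf*, *Elf3* and *Grhl2* in HFCFD12W+T10W, reached the count filter's level of 1.08 or 1.12 CPM in 0 of 5 *Cebpa* fl/fl mice and in 5 of 5 knockout mice. They entered the test through the knockout mice alone and had to differ, so the counts over tested members are a description.

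**Figure D1:**
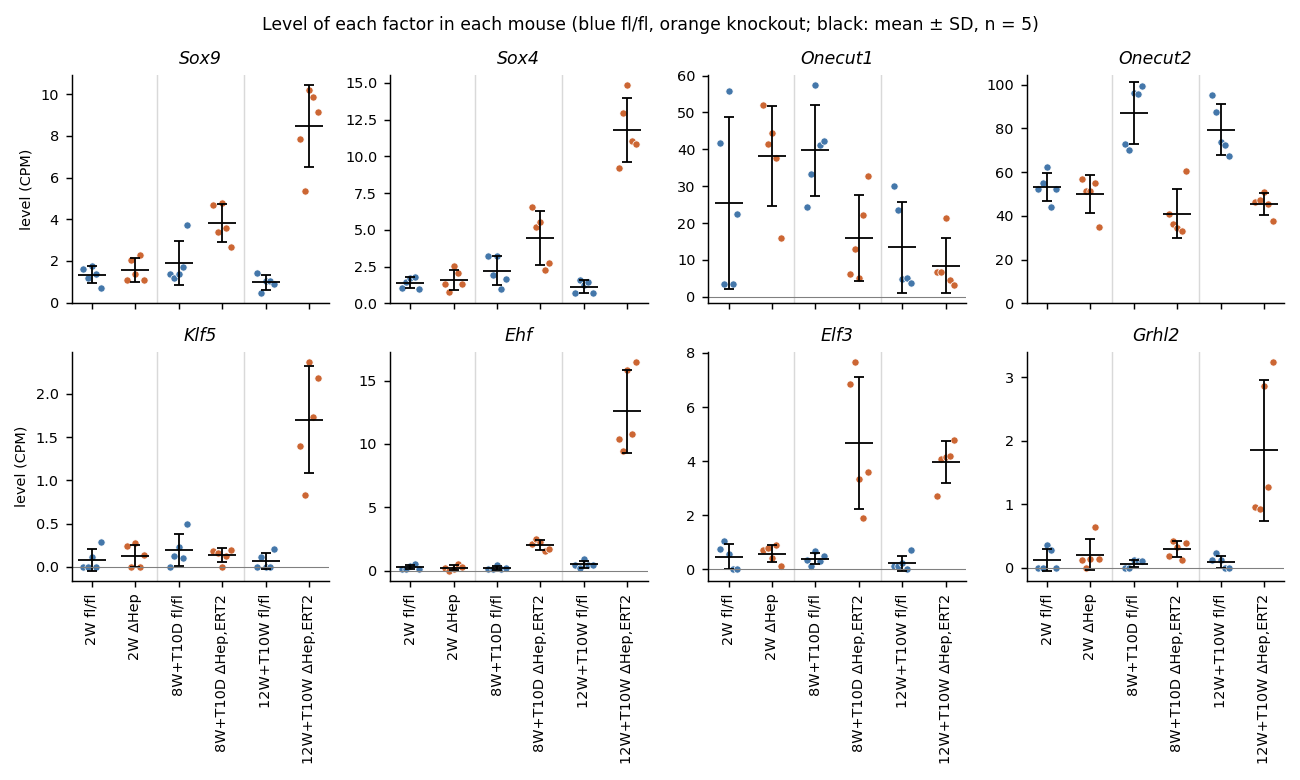
Level of each of the 8 factors in each mouse, in CPM on a linear axis that differs between panels, for the 6 groups along the x axis (blue points *Cebpa* fl/fl, orange points knockout, black line and bar the mean ± SD of 5 mice). In HFCFD12W+T10W the orange points stand above the blue ones for every factor except *Onecut1*, which overlaps, and *Onecut2*, which is lower (45.6 ± 4.94 against 79.3 ± 11.7 CPM).

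The start regions of *Sox4*, *Elf3* and *Onecut1* are shown, the 3 members for which a window could be used here, so that genes that rose in knockout livers of HFCFD12W+T10W (*Sox4* and *Elf3*) stand beside one that did not. The sequences come from the RefSeq promoter table of build GRCm38.p6, cut to the bases upstream of both the RefSeq and the GENCODE start, and are written 5′ to 3′ on the gene's strand. Capitals mark CCAAT on either strand, the box for which the C/EBP family was named. *Sox4* is shown at chr13:28953714-28953949 on the minus strand, *Elf3* at chr1:135258569-135258722 on the minus strand, and *Onecut1* at chr9:74861671-74861920 on the plus strand.
Sox4: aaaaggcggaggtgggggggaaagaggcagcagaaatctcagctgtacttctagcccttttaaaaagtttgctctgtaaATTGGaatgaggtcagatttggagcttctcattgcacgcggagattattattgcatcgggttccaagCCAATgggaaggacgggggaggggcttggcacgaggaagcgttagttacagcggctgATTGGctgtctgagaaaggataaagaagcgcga
Elf3: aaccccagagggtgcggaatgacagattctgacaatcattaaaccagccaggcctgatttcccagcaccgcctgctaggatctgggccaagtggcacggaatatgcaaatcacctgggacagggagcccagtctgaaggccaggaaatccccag
Onecut1: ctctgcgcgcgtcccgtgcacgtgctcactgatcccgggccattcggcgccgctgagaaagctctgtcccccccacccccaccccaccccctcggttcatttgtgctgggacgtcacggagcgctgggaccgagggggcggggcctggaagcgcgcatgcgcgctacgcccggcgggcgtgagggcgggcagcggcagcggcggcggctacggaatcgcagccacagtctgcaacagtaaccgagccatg

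*Sox4* held CCAAT at 3 places in its 236 bases, 1 of them on the gene's own strand, while *Elf3*, with 154 bases, and *Onecut1*, with 250 bases, held it at none. A CCAAT on either strand was found in 32.7%, 20.5% and 33.8% of all 32851 promoter windows at those same lengths. These lengths were counted from the upstream end of each window. At 236 and 154 bases the search stopped short of the RefSeq start. The C/EBP motif TTGCNNAA is a different motif from CCAAT, and it was in none of the 3 windows on either strand. It was in 9.21%, 6.35% and 9.56% of all windows at the lengths of *Sox4*, *Elf3* and *Onecut1*. The ETS motif CCGGAAG, which overlaps neither of them, was also in none of the 3 windows on either strand, against 5.90%, 2.65% and 6.91% of all windows. These are matches of letters in short windows and say nothing of whether a factor binds there. *Sox9*, *Klf5*, *Ehf* and *Grhl2* were not found in the table, and *Onecut2* is not shown here.

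*Sox9* encodes the SRY-box factor most used to mark biliary cells. It lies at chr11:112782224-112787760, plus strand (GRCm38, GENCODE M21). In HFCFD2W its level was 0.7096, 1.19, 1.38, 1.63 and 1.75 CPM in the *Cebpa* fl/fl mice and 1.06, 1.07, 1.35, 2.02 and 2.30 CPM in the *Cebpa* ΔHep mice, listed here and below from the lowest mouse to the highest. The genotypes overlapped over most of their range, and the log2 fold change of 0.23 ± 0.31 (SE) did not pass (95% interval -0.44 to 0.89, edgeR adjusted p = 0.666). In HFCFD8W+T10D the *Cebpa* fl/fl mice had 1.16, 1.39, 1.39, 1.73 and 3.74 CPM and the *Cebpa* ΔHep,ERT2 mice 2.66, 3.37, 3.56, 4.68 and 4.77 CPM. A single *Cebpa* fl/fl mouse, at 3.74 CPM, stood within the knockout range, and the others were below it. *Sox9* rose in this experiment by 1.00 ± 0.31 (SE) on the log2 scale (edgeR adjusted p = 0.0451). In HFCFD12W+T10W the values were 0.453, 0.909, 1.03, 1.03 and 1.43 CPM and 5.36, 7.85, 9.15, 9.85 and 10.2 CPM, with no overlap, and the rise was 3.16 ± 0.26 (SE) (95% interval 2.61 to 3.72, edgeR adjusted p = 1.18e-06).

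The *Sox9* result of HFCFD8W+T10D stood close to the threshold. It passed without *Cebpa* fl/fl mouse 5, the high mouse above (log2 fold change 1.42, edgeR adjusted p = 0.00425), and without *Cebpa* ΔHep,ERT2 mouse 5 (1.09, edgeR adjusted p = 0.0334). Without any 1 of the other 8 mice it did not pass, at 0.87 to 1.03 with edgeR adjusted p from 0.0533 to 0.109.

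*Sox4* encodes an SRY-box factor of progenitor cells that acts with SOX9 in duct formation, and lies at chr13:28948919-28953713, minus strand. Its levels in HFCFD2W were 0.993, 1.04, 1.48, 1.75 and 1.79 CPM in *Cebpa* fl/fl and 0.786, 1.302, 1.34, 2.04 and 2.57 CPM in *Cebpa* ΔHep mice (log2 fold change 0.16 ± 0.32 (SE), 95% interval -0.54 to 0.85, edgeR adjusted p = 0.782). The knockout range held the whole control range. In HFCFD8W+T10D they were 1.02, 1.67, 1.94, 3.24 and 3.24 CPM and 2.25, 2.75, 5.18, 5.53 and 6.56 CPM. The means were 2.22 ± 0.991 and 4.45 ± 1.86 CPM, and 2 of the knockout mice lay within the control range. The log2 fold change of 1.03 ± 0.36 (SE) missed the threshold (95% interval 0.26 to 1.81, edgeR adjusted p = 0.0655). It passed without knockout mouse 4 (1.19, edgeR adjusted p = 0.0272) or knockout mouse 5 (1.15, edgeR adjusted p = 0.0418), and by DESeq2 (adjusted p = 0.0485). In HFCFD12W+T10W *Sox4* was at 0.707, 0.713, 1.26, 1.49 and 1.59 CPM in *Cebpa* fl/fl mice and at 9.24, 10.8, 11.04, 12.9 and 14.9 CPM in *Cebpa* ΔHep,ERT2 mice, far apart and without overlap. *Sox4* rose there by 3.39 ± 0.22 (SE) (edgeR adjusted p = 2.99e-07).

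For both SOX genes the order of the 6 group means was the same, from *Cebpa* fl/fl of HFCFD12W+T10W, the lowest, through both groups of HFCFD2W, to HFCFD8W+T10D, with *Cebpa* ΔHep,ERT2 of HFCFD12W+T10W the highest. Each neighbour in that order overlapped the next but for the last step, from 3.81 ± 0.902 to 8.48 ± 1.97 CPM for *Sox9* and from 4.45 ± 1.86 to 11.8 ± 2.16 CPM for *Sox4*. The genotype effect of HFCFD12W+T10W exceeded that of HFCFD8W+T10D by 2.14 ± 0.42 (SE) for *Sox9* (edgeR interaction, adjusted p = 0.00185) and by 2.32 ± 0.44 (SE) for *Sox4* (adjusted p = 0.00149), on the log2 scale. It exceeded that of HFCFD2W by 2.89 ± 0.47 (SE) for *Sox9* (adjusted p = 4.35e-05) and by 3.19 ± 0.50 (SE) for *Sox4* (adjusted p = 3.45e-05). Between HFCFD8W+T10D and HFCFD2W the effects of the SOX genes differed by 0.76 ± 0.45 (SE) and 0.87 ± 0.49 (SE), which did not pass (adjusted p = 0.297 and 0.267). The 3 comparisons share libraries pairwise.

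*Ehf* encodes an ETS homologous factor of epithelial cells, at chr2:103263433-103303278, minus strand. It was close to the limit of detection in HFCFD2W, with 10 counts summed over 5 *Cebpa* fl/fl and 9 over 5 *Cebpa* ΔHep libraries, and was not tested there. The ratio of its summed CPM, knockout over control, was 0.817 with an exact 95% interval of 0.294 to 2.24 (counting error only), so a smaller difference was not detectable at this depth. In HFCFD8W+T10D the *Cebpa* fl/fl mice had 0.102, 0.116, 0.129, 0.197 and 0.463 CPM and the knockout mice 1.54, 1.71, 2.06, 2.28 and 2.47 CPM. All 5 knockout mice stood above all controls, and the rise was 3.27 ± 0.38 (SE) on the log2 scale (edgeR adjusted p = 1.34e-04). In HFCFD12W+T10W the values were 0.227, 0.404, 0.459, 0.475 and 0.919 CPM and 9.42, 10.4, 10.8, 15.8 and 16.4 CPM, without overlap. *Ehf* rose there by 4.68 ± 0.29 (SE) (95% interval 4.05 to 5.30, edgeR adjusted p = 1.65e-07).

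*Elf3*, at chr1:135253575-135258568, minus strand, encodes an epithelium-specific ETS factor that is induced in inflamed epithelia. In HFCFD2W it had 0, 0, 0.583, 0.742 and 1.04 CPM in *Cebpa* fl/fl and 0.134, 0.405, 0.7099, 0.786 and 0.894 CPM in *Cebpa* ΔHep mice, too low for the test. The exact permutation test of the mean log2 CPM gave p = 0.452 (n = 5 against 5, two-sided, smallest possible p = 0.00794). In HFCFD8W+T10D the levels were 0.129, 0.305, 0.348, 0.492 and 0.695 CPM and 1.898, 3.36, 3.61, 6.84 and 7.65 CPM. There was no overlap, although the knockout mice differed among themselves by a factor of 4.03, and *Elf3* rose by 3.54 ± 0.47 (SE) (edgeR adjusted p = 3.34e-04). In HFCFD12W+T10W they were 0, 0.113, 0.119, 0.2298 and 0.707 CPM and 2.703, 4.06, 4.14, 4.196 and 4.78 CPM, and the rise was 3.99 ± 0.43 (SE) (edgeR adjusted p = 9.99e-06). The *Elf3* means of the knockout groups, 4.67 ± 2.46 CPM in HFCFD8W+T10D and 3.98 ± 0.765 CPM in HFCFD12W+T10W, lay within the spread of the mice, where those of *Ehf*, at 2.01 ± 0.385 and 12.6 ± 3.29 CPM, had no mice in common range.

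The genotype effects on the ETS genes were larger in HFCFD8W+T10D than in HFCFD2W, by 3.52 ± 0.79 (SE) for *Ehf* (edgeR interaction, adjusted p = 0.00392) and by 3.18 ± 0.90 (SE) for *Elf3* (adjusted p = 0.0197), in a comparison in which 11.2% of 12964 genes passed. For *Elf3* this did not pass without *Cebpa* fl/fl mouse 1 of HFCFD2W (2.98, edgeR adjusted p = 0.0529) or mouse 2 of that group (2.72, edgeR adjusted p = 0.0871). The effects of HFCFD12W+T10W exceeded those of HFCFD2W by 4.90 ± 0.77 (SE) for *Ehf* (adjusted p = 3.30e-05) and 3.61 ± 0.94 (SE) for *Elf3* (adjusted p = 0.00441), in a comparison in which 30.7% of genes passed. Both ETS genes reached the filter's level in 0 *Cebpa* fl/fl mice of any experiment and in 0 knockout mice of HFCFD2W. They entered the fit of the 6 groups through knockout mice of the tamoxifen experiments alone, so their differences from HFCFD2W are a description. From HFCFD8W+T10D to HFCFD12W+T10W neither ETS gene passed, with differences of 1.38 ± 0.66 (SE) for *Ehf* (95% interval 0.02 to 2.73, adjusted p = 0.192) and 0.43 ± 0.83 (SE) for *Elf3* (95% interval -1.26 to 2.11, adjusted p = 0.808), where 10.5% of genes did. Both SOX genes passed in that same comparison, as given above. Whether the SOX and the ETS genes differed from each other was not tested.

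*Grhl2* and *Klf5* were the scarcest members. *Grhl2*, at chr15:37233036-37363569, plus strand, encodes a grainyhead-like factor of epithelial cell junctions. In HFCFD12W+T10W it had 0, 0, 0.115, 0.119 and 0.227 CPM in *Cebpa* fl/fl mice, which is 4 counts over the group, and 0.924, 0.959, 1.28, 2.87 and 3.24 CPM in *Cebpa* ΔHep,ERT2 mice, or 109 counts. The mice did not overlap, and the knockout mice fell into 3 lower and 2 higher values. The ratio of summed CPM was 21.1 (exact 95% interval 8.02 to 78.96, counting error only), and the fitted rise was 4.25 ± 0.68 (SE) (edgeR adjusted p = 2.07e-04). In HFCFD8W+T10D it was below the filter, with 3 counts in 5 *Cebpa* fl/fl and 15 in 5 knockout livers, a ratio of 4.41 (interval 1.25 to 23.8). The exact permutation test gave p = 0.00794 there (n = 5 against 5), the smallest it can give, and edgeR without the filter gave an adjusted p of 0.124. In HFCFD2W the summed counts were 5 and 8, and the exact permutation p was 0.508 (n = 5 against 5).

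*Klf5*, at chr14:99298691-99315036, plus strand, encodes a Krüppel-like factor of proliferating epithelia, and no experiment had enough counts of it for the filter. In HFCFD12W+T10W it was at 0, 0, 0, 0.113 and 0.202 CPM in *Cebpa* fl/fl mice, a total of 3 counts, and at 0.831, 1.39, 1.73, 2.19 and 2.36 CPM in *Cebpa* ΔHep,ERT2 mice, a total of 99 counts. Every knockout mouse stood above every control (exact permutation p = 0.00794, n = 5 against 5, the smallest possible). The ratio of summed CPM was 25.6, with an exact 95% interval of 8.51 to 126 that covers counting error only, and edgeR without the filter gave an adjusted p of 1.25e-05. In the other experiments *Klf5* had 3 and 5 counts (HFCFD2W) and 9 and 7 counts (HFCFD8W+T10D) in the *Cebpa* fl/fl and the knockout groups, with exact permutation p = 0.603 and 0.706 (n = 5 against 5 each). After 10 days of tamoxifen, in HFCFD8W+T10D, the ratio of summed CPM of *Klf5* was 0.686 (interval 0.217 to 2.07).

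The *Klf5* effect of HFCFD12W+T10W exceeded that of HFCFD8W+T10D by 4.91 ± 1.11 (SE) on the log2 scale (edgeR interaction, adjusted p = 0.00586), a size that rests on groups with few counts and depends on the prior count. Against HFCFD2W the difference of 3.88 ± 1.53 (SE) did not pass (adjusted p = 0.0525), though it passed in 10 of 30 fits that left out 1 mouse (adjusted p from 0.0263 to 0.0474). For *Grhl2* the effect of HFCFD12W+T10W exceeded that of HFCFD2W by 3.67 ± 1.33 (SE) (adjusted p = 0.0363). It did not pass without *Cebpa* fl/fl mouse 3 or 4 of HFCFD2W, *Cebpa* ΔHep mouse 2, 3 or 6 of HFCFD2W, or *Cebpa* fl/fl mouse 4 or 5 of HFCFD12W+T10W, at 2.85 to 3.56 with edgeR adjusted p from 0.0509 to 0.235. *Klf5* and *Grhl2* reached the filter's level only in knockout mice of HFCFD12W+T10W and entered the fit of the 6 groups through them. Their differences from the other experiments are therefore a description.

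**Figure D2:**
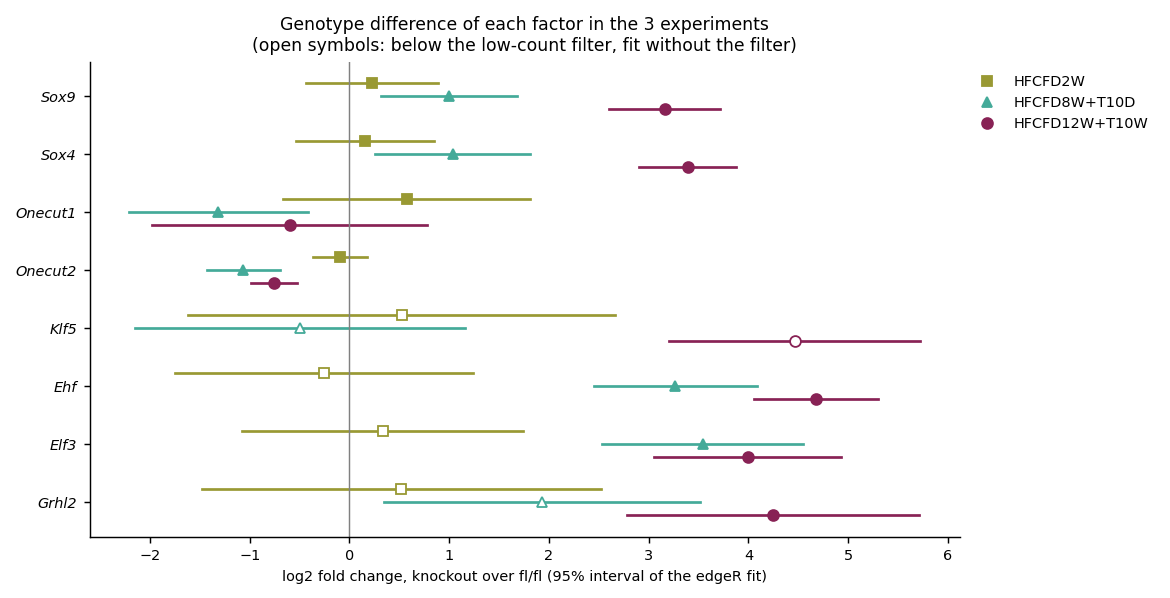
Log2 fold change of each factor, knockout over *Cebpa* fl/fl, on the x axis, with the 95% interval of the edgeR fit as a line (squares HFCFD2W, triangles HFCFD8W+T10D, circles HFCFD12W+T10W, open symbols where the gene was below the low-count filter). The circles of *Sox9*, *Sox4*, *Klf5*, *Ehf*, *Elf3* and *Grhl2* lie right of 0, between 3.16 and 4.68, and both inducible-knockout symbols of *Onecut2* lie left of 0.

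*Onecut2* varied little between mice of a group and went the other way. It encodes a ONECUT homeodomain factor that acts alongside ONECUT1 in hepatocytes and ducts. In HFCFD2W its levels were 44.3, 52.2, 52.2, 54.9 and 62.5 CPM in *Cebpa* fl/fl and 34.9, 51.2, 51.4, 54.9 and 56.8 CPM in *Cebpa* ΔHep mice, which overlapped nearly fully. The 95% interval of the log2 fold change, -0.37 to 0.18, was the narrowest of the tested members (edgeR adjusted p = 0.661). In HFCFD8W+T10D they were 69.99, 73.1, 95.7, 96.3 and 99.6 CPM and 33.2, 34.7, 36.4, 40.8 and 60.4 CPM. All knockout mice were below all controls, and the log2 fold change was -1.07 ± 0.17 (SE) (edgeR adjusted p = 0.00123). In HFCFD12W+T10W they were 67.6, 72.5, 73.6, 87.6 and 95.4 CPM and 37.6, 45.5, 46.3, 47.5 and 51.1 CPM, again without overlap, with a log2 fold change of -0.75 ± 0.11 (SE) (edgeR adjusted p = 8.27e-05). *Onecut2* fell in these experiments from control levels of 86.9 ± 14.2 and 79.3 ± 11.7 CPM to 41.1 ± 11.2 and 45.6 ± 4.94 CPM, which overlapped with 53.2 ± 6.53 and 49.9 ± 8.68 CPM in the groups of HFCFD2W.

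In the order of the 6 groups, the 4 lowest for *Onecut2* (the knockout groups and *Cebpa* fl/fl of HFCFD2W) overlapped from neighbour to neighbour, and the gap lay below the controls of both tamoxifen experiments. The genotype effect on *Onecut2* in HFCFD8W+T10D minus that in HFCFD2W was -0.98 ± 0.21 (SE) on the log2 scale (edgeR interaction, adjusted p = 0.00244), and that in HFCFD12W+T10W minus that in HFCFD2W was -0.70 ± 0.21 (SE) (adjusted p = 0.0109). Between the tamoxifen experiments it differed by 0.28 ± 0.21 (SE) (95% interval -0.14 to 0.70, adjusted p = 0.427), which did not pass.

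*Onecut1*, at chr9:74861921-74891781, plus strand, encodes hepatocyte nuclear factor 6, and its mRNA scattered widely within groups. In *Cebpa* fl/fl mice of HFCFD2W it had 3.56, 3.59, 22.4, 41.7 and 55.96 CPM, a 15.7-fold span, where *Onecut2* spanned 1.41-fold over the same libraries. The *Cebpa* ΔHep mice had 15.8, 37.7, 41.4, 44.3 and 51.9 CPM, and the log2 fold change of 0.57 ± 0.57 (SE) did not pass (95% interval -0.66 to 1.81, edgeR adjusted p = 0.535). In HFCFD8W+T10D the levels were 24.3, 33.4, 41.04, 42.3 and 57.5 CPM in *Cebpa* fl/fl mice and 5.20, 6.28, 12.9, 22.1 and 32.9 CPM in *Cebpa* ΔHep,ERT2 mice, and 1 knockout mouse lay within the control range. *Onecut1* fell there, with a log2 fold change of -1.31 ± 0.41 (SE) (95% interval -2.21 to -0.42, edgeR adjusted p = 0.0451). In HFCFD12W+T10W the values were 3.74, 4.71, 5.05, 23.5 and 29.9 CPM and 3.08, 4.56, 6.63, 6.65 and 21.4 CPM, with 1 high mouse in the knockout group, and the log2 fold change of -0.60 ± 0.64 (SE) did not pass (95% interval -1.98 to 0.78, adjusted p = 0.459).

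The log2 fold change of *Onecut1* in HFCFD8W+T10D was about as large in other fits, while its adjusted p missed the threshold in several. It was -1.28 under upper quartile normalization (adjusted p = 0.05099), -1.33 by DESeq2 (0.0513), -1.31 with robust dispersions (0.0904) and -1.33 in a fit of all libraries (0.108). The call held without *Cebpa* fl/fl mouse 1 or knockout mouse 4 or 5 (-1.79 to -1.45, edgeR adjusted p from 0.00711 to 0.0428), and not without any 1 of the other 7 mice (-1.38 to -1.09, adjusted p from 0.0622 to 0.09798). *Gm20649*, a lincRNA annotated over *Onecut1* on the same strand, took 0 to 69.8 counts a library, and reads that fit both were split by the authors' counting, so the *Onecut1* counts are uncertain. With both summed, the log2 fold changes were 0.57 in HFCFD2W, -1.34 in HFCFD8W+T10D (adjusted p = 0.0514) and -0.77 in HFCFD12W+T10W. The effect on *Onecut1* did not pass a test of difference between any 2 experiments, with values of -1.90 ± 0.86 (SE) for HFCFD8W+T10D minus HFCFD2W (adjusted p = 0.154), -1.22 ± 0.90 (SE) for HFCFD12W+T10W minus HFCFD2W (adjusted p = 0.313) and 0.68 ± 0.90 (SE) for HFCFD12W+T10W minus HFCFD8W+T10D (adjusted p = 0.697).

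Mice with more *Onecut1* mRNA tended to have more *Onecut2* mRNA as well. Pearson's r of their log2 CPM was 0.41 over the 30 libraries and 0.63 after each group's mean was taken away, a description over libraries that share batch and genotype. In HFCFD12W+T10W the knockout mouse with the highest *Onecut1* also had the highest *Onecut2*, and so did the knockout mouse highest in HFCFD8W+T10D.

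**Figure D3:**
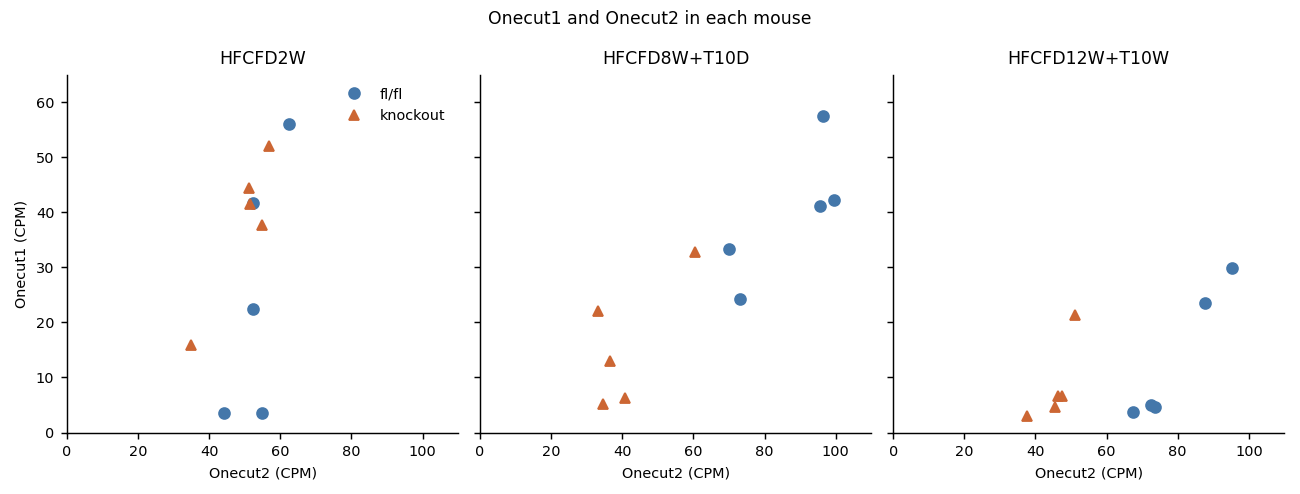
*Onecut1* (y axis) against *Onecut2* (x axis) in each mouse, in CPM on linear axes, 1 panel for each experiment (blue circles *Cebpa* fl/fl, orange triangles knockout). In both tamoxifen experiments the triangles stand left of the circles, and within HFCFD2W *Onecut1* runs from 3.56 to 55.96 CPM in the circles while *Onecut2* stays between 44.3 and 62.5 CPM.

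Compared per transcript length, the members' makeup changed from a pair to a mixture. On the scale of TPM (RSEM's transcript abundance, scaled for transcript length and library total, mean ± SD of 5 mice), *Onecut1* was at 4.81 ± 4.55 and *Onecut2* at 5.90 ± 0.883 in *Cebpa* fl/fl livers of HFCFD12W+T10W, and each of the other 6 members had a mean of 0.300 TPM or less. The ONECUT pair held 33.6% ± 19.7 and 55.6% ± 15.2 of the TPM summed over the 8 members there. In the *Cebpa* ΔHep,ERT2 livers of that experiment *Ehf* was at 4.76 ± 1.36, *Onecut2* at 4.504 ± 0.412, *Sox4* at 4.08 ± 0.733, *Onecut1* at 3.62 ± 2.998, *Elf3* at 3.59 ± 0.657 and *Sox9* at 3.43 ± 0.751 TPM. Between neighbours in this order the means differed by less than the larger of both SDs, while *Klf5* and *Grhl2* stayed lower at 0.858 ± 0.309 and 0.824 ± 0.355 TPM. In HFCFD8W+T10D knockout livers *Elf3*, at 3.57 ± 2.31 TPM, was as abundant per length as *Onecut2*, at 3.33 ± 1.29 TPM, within the spread of the mice. The sum over the 8 members was 11.8 ± 5.41 TPM in *Cebpa* fl/fl and 25.7 ± 5.29 TPM in knockout livers of HFCFD12W+T10W, 20.3 ± 6.502 and 16.6 ± 6.33 TPM in HFCFD8W+T10D, and 11.5 ± 7.72 and 15.8 ± 4.98 TPM in HFCFD2W, shown without a test. TPM was not adjusted by TMM, so the sums depend on the scale. In CPM, which is not scaled for length, the sums of HFCFD12W+T10W overlapped. They ran from 74.2 to 128 CPM in *Cebpa* fl/fl and from 85.4 to 123 CPM in knockout mice.

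**Figure D4:**
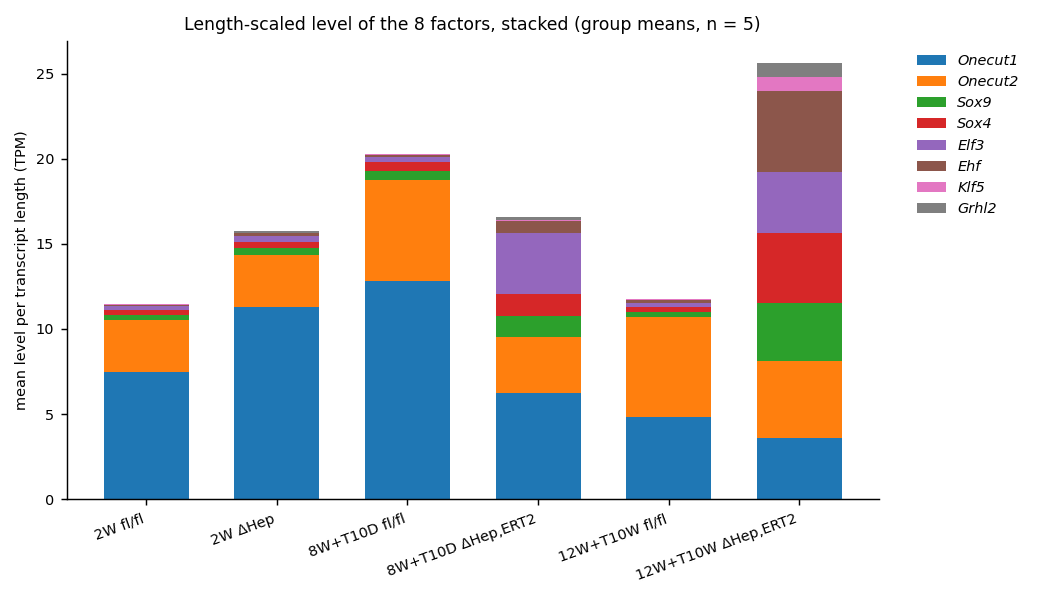
Mean TPM of the 8 factors in each of the 6 groups, stacked from 0 (each coloured part is the mean of 5 mice for 1 factor). *Onecut1* and *Onecut2* make up most of every control bar, and in *Cebpa* ΔHep,ERT2 livers of HFCFD12W+T10W they reach 3.62 and 4.504 TPM beside 4.76 TPM of *Ehf*.

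Genes of epithelial junctions and membranes, several of them known targets of GRHL2, were followed as a list of 22, and changes of list genes are log2 fold changes ± SE from the edgeR fits, each with an adjusted p under 0.05 where a direction is given. Of all genes tested, 27.4% were higher and 23.8% lower in HFCFD12W+T10W, and 10.3% and 6.85% in HFCFD8W+T10D. In HFCFD2W these shares were 8.60% and 8.09%, and list counts here and below stand beside them. In HFCFD12W+T10W, 18 of 21 tested were higher and 2 lower, but 9 of them, *Esrp1* and *Cldn4* included, reached the filter's level in 0 of 5 *Cebpa* fl/fl mice, were tested through the knockout mice alone and had to be higher. Of the other 12, 9 were higher and 2 lower. *St14*, a membrane serine protease, rose by 4.53 ± 0.31, from 0.539 ± 0.417 to 12.4 ± 2.52 CPM. *Esrp1*, a splicing factor of epithelial cells, went from 0.0686 ± 0.103 to 2.11 ± 0.700 CPM (edgeR adjusted p = 1.62e-05), and *Cldn4*, a tight junction claudin, from 0.0404 ± 0.0903 to 3.11 ± 1.97 CPM (adjusted p = 4.51e-05), both from controls with few counts, against which a fold is not given. *Krt23* and *Esrp2* were the lower ones, with log2 fold changes of -1.01 ± 0.39 and -0.51 ± 0.13. In HFCFD8W+T10D, 8 of 11 tested were higher and 1 lower. Of the higher ones, 1, *Prss8*, was tested through the knockout mice alone and had to be higher. *Prss8*, a protease of the same pathway as *St14*, rose by 2.74 ± 0.37, from 0.431 ± 0.176 to 2.99 ± 1.03 CPM. *Cdh1*, the E-cadherin of adherens junctions, rose by 1.71 ± 0.26, from 10.7 ± 5.51 to 34.6 ± 2.75 CPM, and *Marveld2*, a tight junction protein, by 0.92 ± 0.24, while *Krt23* was lower (-1.30 ± 0.39). In HFCFD2W, 0 of 11 tested were higher and 1 lower (median log2 fold change 0.08, all genes 0.01), and the lower one was *Esrp2* (-0.48 ± 0.08).

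Relatives of the members (SOX, ONECUT, KLF, ELF, grainyhead-like and OVOL factors, with *Tbx3* and *Prox1* among others) moved in both directions. In HFCFD12W+T10W, 4 of 18 tested were higher and 6 lower (median log2 fold change -0.14, all genes 0.01), beside 27.4% and 23.8% of all genes. Of the 4, 1 reached the filter's level in no control mouse and had to be higher. *Grhl1*, the relative of *Grhl2*, rose by 2.26 ± 0.27, from 0.762 ± 0.297 to 3.598 ± 0.788 CPM. *Klf6*, an early response factor, rose by 1.78 ± 0.22, from 13.4 ± 4.905 to 44.8 ± 8.702 CPM, and *Elf4* by 1.62 ± 0.17. *Prox1*, a hepatoblast and hepatocyte factor, was lower in each experiment, with log2 fold changes of -1.003 ± 0.22 on 2 weeks of diet, -0.35 ± 0.11 after the short tamoxifen course and -0.79 ± 0.08 after the long one. *Tbx3*, a factor of hepatoblast growth, was lower in HFCFD2W (-1.11 ± 0.27) and HFCFD12W+T10W (-0.86 ± 0.22), and *Klf10* in the latter (-0.66 ± 0.11). In HFCFD8W+T10D, 1 of 17 tested were higher and 1 lower (median log2 fold change 0.03, all genes 0.01), the higher one being *Klf6* (0.81 ± 0.20). In HFCFD2W, where no member passed, 4 of 17 tested were higher and 2 lower (median log2 fold change 0.08, all genes 0.01). Among them *Grhl1* rose by 1.00 ± 0.24, *Klf3* by 0.83 ± 0.11 and *Klf6* by 0.64 ± 0.16.

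Notch signalling instructs progenitors toward the bile duct, with *Jag1* as a ligand and the Hey genes among its targets, and *Sox9* is itself a Notch target. Of 16 Notch pathway genes, 7 of 13 tested were higher in HFCFD12W+T10W knockout livers and 0 lower (median log2 fold change 0.35), beside 27.4% and 23.8% of all genes. Of these, *Hey1* reached the filter's level in no control mouse and had to be higher. Of the other 12, 6 were higher and 0 lower. *Heyl* rose by 2.02 ± 0.21, from 1.48 ± 0.436 to 5.89 ± 1.01 CPM, *Hey1* by 1.47 ± 0.26 and *Jag1* by 1.01 ± 0.17. None of 12 tested passed in HFCFD8W+T10D and none of 9 in HFCFD2W by edgeR. In the Hippo-YAP pathway, Hippo signalling holds back YAP and, through it, growth and, in hepatocytes, biliary genes. Of 17 genes of this pathway, 4 of 16 tested were higher and 4 lower in HFCFD12W+T10W, shares near the 27.4% and 23.8% of all genes. *Ankrd1*, a YAP target, rose from 0.0238 ± 0.0531 to 2.15 ± 0.572 CPM, *Ajuba* by 1.62 ± 0.18 and *Ccn2* by 1.38 ± 0.22, while the target *Amotl2* fell by 0.89 ± 0.11. *Ankrd1* reached the filter's level in no control mouse and had to be higher, and of the other 15 genes 3 were higher and 4 lower. In HFCFD8W+T10D *Ajuba* was higher (0.97 ± 0.30) and *Yap1* lower (-0.34 ± 0.10) of 15 tested. In HFCFD2W *Tead1* was higher (0.74 ± 0.21), and *Ccn1* (-0.95 ± 0.18) and *Wwtr1* (-0.66 ± 0.12) were lower, of 15.

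Of 12 other hepatocyte transcription factors, all tested, 9 were lower and 1 higher in HFCFD12W+T10W, 4 lower and 0 higher in HFCFD8W+T10D, and 1 lower and 1 higher in HFCFD2W. Among all genes tested, 23.8%, 6.85% and 8.09% were lower in these experiments, in that order, and 27.4%, 10.3% and 8.60% higher. *Hnf4a*, the main factor of hepatocyte identity, fell from 713 ± 60.97 to 357 ± 24.95 CPM in HFCFD12W+T10W and from 706 ± 86.4 to 473 ± 53.9 CPM in HFCFD8W+T10D, the experiments in which *Onecut2* was lower. *Cebpb*, the relative of *Cebpa*, rose in HFCFD2W by 1.11 ± 0.15, where *Nr1h4*, the bile acid receptor FXR, was lower (-0.64 ± 0.11).

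Markers of bile duct cells were read in the same libraries, and their sums stood higher in the knockout group of every experiment, HFCFD2W included, where no member passed. The summed level of 12 cholangiocyte markers ran from 21.1 to 26.6 CPM in *Cebpa* fl/fl and from 141 to 197 CPM in knockout livers of HFCFD12W+T10W, from 16.7 to 27.8 and from 36.8 to 51.9 CPM in HFCFD8W+T10D, and from 12.02 to 19.1 and from 21.2 to 43.1 CPM in HFCFD2W. In HFCFD12W+T10W the 10 markers tested were higher, of which 4, *Cftr* and *Prom1* among them, reached the filter's level in no control mouse and had to be. *Epcam*, a surface marker of ducts and progenitors, went from 0.820 ± 0.267 to 17.6 ± 4.896 CPM, *Cftr*, the chloride channel of ducts, from 1 count to 273 counts over 5 libraries, and *Krt19*, the defining duct keratin, from 1.62 ± 0.668 to 10.7 ± 3.16 CPM. In HFCFD8W+T10D, 5 of 7 tested were higher (*Epcam*, *Cd24a*, *Prom1*, *Bicc1* and *Pkhd1*), of which *Epcam* reached the filter's level in no control mouse and had to be. The duct keratins were not among the 5: *Krt19* had 0.813 to 6.198 CPM in controls and 1.73 to 3.44 CPM in knockouts (log2 fold change -0.51 ± 0.39, edgeR adjusted p = 0.417), and *Krt7* -0.19 ± 0.37 (adjusted p = 0.782). *Spp1*, the gene of osteopontin, which ducts and other cells secrete, is not among the 12 cholangiocyte markers. It had 43.8 ± 17.5 and 531 ± 116 CPM in the control and knockout groups of HFCFD2W. Its levels were 41.2 ± 7.02 and 246 ± 98.5 CPM in HFCFD8W+T10D and 46.02 ± 6.22 and 801 ± 136 CPM in HFCFD12W+T10W. The paper reports that, in knockout mice on the shortest diet, the osteopontin gene was induced mainly in hepatocytes. The cells that hold this mRNA were not tested here. In HFCFD2W, 1 of 3 cholangiocyte markers tested, *Pkhd1*, was higher, by 1.15 ± 0.18, from 7.40 ± 1.07 to 16.6 ± 4.26 CPM. *Pkhd1* had the highest mean of the 12 markers in both groups there, so it weighed most in the summed level of that experiment. *Cd24a* and *Bicc1* did not pass there (edgeR adjusted p = 0.0716 and 0.158). Too low to be tested, *Krt7* was at 0.817 ± 0.604 and 0.558 ± 0.277 CPM in controls and knockouts. *Krt19* was at 1.25 ± 0.585 and 1.16 ± 0.617 CPM, and *Epcam* at 0.509 ± 0.271 and 1.59 ± 0.697 CPM, both untested as well. *Sctr*, the secretin receptor of ducts, was at 0 in all livers of HFCFD8W+T10D. The part of duct cell number in the members' levels was not tested.

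Other cell types moved as well. All 12 stellate cell and fibroblast markers were higher in HFCFD12W+T10W knockout livers, with sums of 356 to 442 CPM in controls and 1379 to 1710.4 CPM in knockouts, against 3 of 12 in HFCFD8W+T10D (399 to 685 and 638 to 1258 CPM) and 1 of 11 in HFCFD2W (185 to 342 and 193 to 381 CPM). Cell cycle genes were higher in 8 of 8 tested in HFCFD12W+T10W (3.68 to 22.3 and 34.9 to 62.6 CPM) and in 7 of 7 in HFCFD8W+T10D (10.1 to 37.4 and 40.1 to 87.4 CPM), and 1 of 1 in HFCFD2W (4.01 to 4.97 and 4.94 to 14.2 CPM). Of the 8 in HFCFD12W+T10W, 1 reached the filter's level in no control mouse and had to be higher. Hepatocyte markers were lower in 4 of 10 in HFCFD12W+T10W, 2 of 10 in HFCFD8W+T10D and 1 of 10 in HFCFD2W (*Asgr1*, -0.27 ± 0.07), where *Tat*, the tyrosine aminotransferase gene, was higher (1.52 ± 0.20). The shares of all genes that were lower are 23.8%, 6.85% and 8.09% in the same order. Albumin mRNA itself had log2 fold changes of -1.10 ± 0.12 in HFCFD12W+T10W and -0.94 ± 0.28 in HFCFD8W+T10D. The part of these cells in the levels of the 8 members was not tested.

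**Figure D5:**
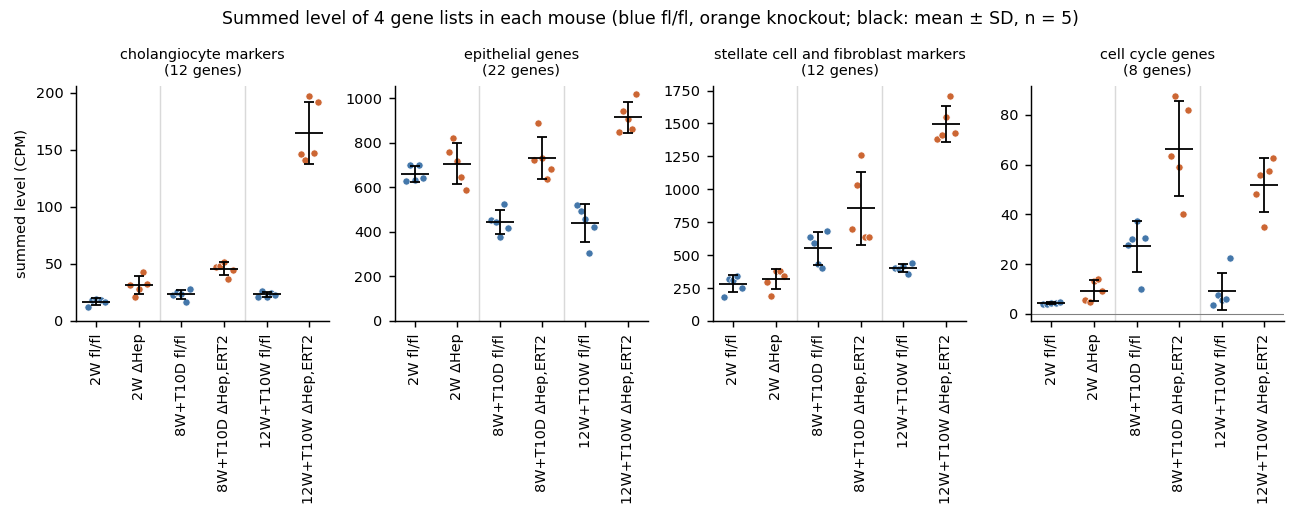
Summed CPM of 4 gene lists in each mouse on linear axes, for the 6 groups along the x axis (blue points *Cebpa* fl/fl, orange points knockout, black line and bar the mean ± SD of 5 mice). The cholangiocyte marker sums of HFCFD12W+T10W, 141 to 197 CPM in knockouts, stand above every other group, and in HFCFD8W+T10D the cholangiocyte, epithelial and cell cycle sums of the knockout mice lie above those of the controls.

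Over the 30 libraries, the genes whose log2 CPM were most like those of a member were found by Pearson's r among 12105 genes with a mean of at least 1 CPM, as a description of libraries that share groups and batches. For *Ehf* they included *Fndc10* (r = 0.94) and *Prom1* (r = 0.94), the progenitor marker prominin 1. *Sox9* was most like *Ptgfrn* (r = 0.90), *Lox* (r = 0.89) and *Emb* (r = 0.89), *Sox4* most like *Pygb* (r = 0.94), *Scara3* (r = 0.94) and *Adgrg1* (r = 0.93), and *Elf3* most like *Kif22* (r = 0.89), *Rcan3* (r = 0.88) and *Tagln2* (r = 0.87). *Lox* encodes a collagen cross-linking enzyme of fibroblasts, and *Adgrg1* an adhesion receptor. With group means taken away, r fell to 0.30 for *Ehf* with *Prom1* and 0.32 for *Sox9* with *Ptgfrn*, and was 0.80 for *Sox4* with *Adgrg1*. *Onecut2* was most like *Mtus1* (r = 0.87), *4930581F22Rik* (r = 0.86) and *Cntrl* (r = 0.83). For *Onecut1* they were *Kdm5b* (r = 0.78), *Phf8* (r = 0.76) and *Eif4ebp3* (r = 0.74), of which *Kdm5b*, a histone demethylase, kept an r of 0.79 within groups. Among the members, the pairs of *Sox9*, *Sox4*, *Ehf* and *Elf3* had r from 0.76 to 0.89 over all libraries and from -0.04 to 0.45 within groups.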

How the data were processed

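The authors deposited RSEM expected counts per gene without normalization for each library, with TPM from the same files, and a signal table of TMM-scaled counts for 15010 genes. Per the labels, libraries were made with a stranded poly(A) kit, and the submitters' processing notes name Trimmomatic 0.36, STAR 2.5.1, Picard 1.84, RSEM 1.2.22, DESeq2 and mm10. RSEM splits reads that fit several genes, and 11.3% of counts above 0 were not whole (tolerance 0.001). A deposited RPKM table was not used. All 55450 gene identifiers matched GENCODE M21 (GRCm38), with 0 symbols that differed. Genes that overlap *Sox4*, *Elf3* and *Grhl2* on the opposite strand had 0 to 5 counts a library.

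Counts were rounded, and with R 4.3.3 and edgeR 4.0.16 the genotypes were compared per experiment (filterByExpr, TMM, quasi-likelihood F test, Benjamini-Hochberg adjustment over all genes tested). Differences of effects were tested as interactions in 1 fit of the 6 groups. Standard errors come from the F statistic. Log2 CPM (prior count 2, TMM over all libraries) entered exact two-sided permutation tests over the 252 arrangements of 10 mice. DESeq2 1.42.0 and limma 3.58.1 (log2 of the authors' TMM values plus 1) were alternatives, with upper quartile factors, robust dispersions, no filter, a joint fit, the replicate block and each mouse left out. The sum of *Onecut1* and *Gm20649* was added after seeing the data. The edgeR step was tested on simulated data. The closest 2 libraries of a group differed by a chi-square of 8.49 per degree of freedom. At these totals, 3 counts is the limit that a count of 0 allows in a library, and intervals cover counting error only.

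The labels name biological replicates. Replicate numbers did not pair mice across genotypes: deviations of same-numbered mice, over the 2000 most variable genes, had r of -0.23 to 0.07, -0.09 to 0.16 and -0.05 to 0.18 in the 3 experiments. The members and gene lists were chosen with earlier results of these data known. Named are the 8 members, up to 3 genes of each list per experiment and direction with the largest fold change among those with adjusted p under 0.05 and a mean of at least 1 CPM, the 3 genes most like each member with a mean of at least 1 CPM, *Cebpa* and *Spp1*. *Krt7*, *Krt19*, *Bicc1*, *Pkhd1*, *Sctr* and *Gm20649* were named after their values were seen. A few genes that the rule would name are not reported here.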

Additional observations from a re-analysis of the deposited data

Results flagged for a closer look

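In 6 of 48 sets of 5 mice (8 members in 6 groups), 1 mouse stood apart from the others by more than Dixon's 95% critical value of 0.71 for the gap over the range. Chance flags about 1 in 20 such sets where values follow a normal distribution. Many of these sets hold few counts, for which that rate need not hold, so the number of flags is a description. *Sox9* was at 3.74 CPM in *Cebpa* fl/fl mouse 5 of HFCFD8W+T10D, against 1.73 CPM in the nearest mouse. *Onecut1* was at 21.4 CPM in *Cebpa* ΔHep,ERT2 mouse 3 of HFCFD12W+T10W, against 6.65 CPM in the nearest. *Onecut2* was low, at 34.9 CPM, in *Cebpa* ΔHep mouse 6 of HFCFD2W (nearest 51.2 CPM), and high, at 60.4 CPM, in *Cebpa* ΔHep,ERT2 mouse 5 of HFCFD8W+T10D (nearest 40.8 CPM). *Ehf* was at 0.463 CPM, or 4 counts, in *Cebpa* fl/fl mouse 3 of HFCFD8W+T10D (nearest 0.197 CPM), and *Grhl2* at 0.639 CPM, or 5 counts, in *Cebpa* ΔHep mouse 5 of HFCFD2W (nearest 0.135 CPM).

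The genotype effect differed between experiments, by edgeR's interaction test at an adjusted p under 0.05, in 12 member results. On the log2 scale the effect of HFCFD8W+T10D minus that of HFCFD2W was 3.18 for *Elf3*, 3.52 for *Ehf* and -0.98 for *Onecut2*. The effect of HFCFD12W+T10W minus that of HFCFD8W+T10D was 2.14 for *Sox9*, 2.32 for *Sox4* and 4.91 for *Klf5*, the last from groups with few counts. The effect of HFCFD12W+T10W minus that of HFCFD2W was 2.89 for *Sox9*, 3.19 for *Sox4*, 3.61 for *Elf3*, 4.90 for *Ehf*, 3.67 for *Grhl2* and -0.70 for *Onecut2*. *Ehf*, *Elf3*, *Klf5* and *Grhl2* entered this fit through knockout mice of the tamoxifen experiments alone, so their differences are a description. Diet time, Cre line, tamoxifen and batch differ between the experiments as well and cannot be told apart.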

How the results depend on the processing

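Of 218 member results recomputed under another setting with all mice, 204 kept their direction and their side of the threshold, 5 passed only under the alternative, 8 passed only in the reported fit and 1 changed sign, and of 288 group means 0 moved by more than 1 SD. The 5 members called in HFCFD8W+T10D became 3 at an adjusted p under 0.01, and ran from 3 to 6 with each mouse left out; the counts of the other comparisons stayed within 1.5 times. With the replicate block, which pairs mice by a number that the data do not bear out, *Onecut2* in HFCFD2W changed sign (log2 fold change 0.013), *Sox4* in HFCFD8W+T10D passed (adjusted p = 0.0108), and *Sox9* in HFCFD8W+T10D (adjusted p = 0.0719), *Elf3* in HFCFD8W+T10D minus HFCFD2W (0.136) and *Grhl2* in HFCFD12W+T10W minus HFCFD2W (0.0712) did not; it changed no other call. In the joint fit *Sox4* in HFCFD8W+T10D passed (adjusted p = 0.0113). *Klf5* in HFCFD12W+T10W minus HFCFD2W passed with upper quartile factors (adjusted p = 0.0482) and DESeq2 (0.0272). With each mouse left out, log2 values that crossed 0 ran from -0.063 to 0.340 for *Sox4* and -0.158 to 0.010 for *Onecut2* in HFCFD2W, and from -0.00525 to 1.21 for *Onecut1* in HFCFD12W+T10W minus HFCFD8W+T10D. The causes were not tested. Depth limits *Klf5*, *Grhl2*, *Ehf* and *Elf3* to few counts in the control libraries.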

Other observations

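Macrophage, lymphocyte and endothelial markers were read in the same livers. Of 10 macrophage markers, 6 were higher and 2 lower of 10 tested in HFCFD12W+T10W, 6 higher of 10 in HFCFD8W+T10D and 2 higher of 8 in HFCFD2W. *Gpnmb* and *Trem2*, known from lipid-laden macrophages, rose from 1.07 ± 0.611 to 48.9 ± 13.3 CPM and from 0.823 ± 0.265 to 13.99 ± 1.396 CPM in HFCFD12W+T10W, while *Timd4* and *Marco*, known from resident Kupffer cells, had log2 fold changes of -2.72 ± 0.48 and -2.35 ± 0.53. In HFCFD8W+T10D *Marco* was higher (2.18 ± 0.62), from 14.4 ± 6.58 to 64.1 ± 78.2 CPM, with an SD above the mean in the knockout mice. The difference of its effects between the experiments was not tested. Of 10 lymphocyte markers, 4 were tested in HFCFD12W+T10W, and the 3 that were higher, among them *Cd8a* (0.424 ± 0.217 to 2.53 ± 1.05 CPM), reached the count filter's level in no control mouse and had to be higher. By edgeR 0 of 2 tested passed in HFCFD8W+T10D and 0 of 1 in HFCFD2W. Of 10 endothelial markers, 1 was higher and 2 lower in HFCFD12W+T10W, 1 lower in HFCFD8W+T10D and 0 in HFCFD2W.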
